A study of Arabidopsis thaliana with 30 samples.

Results

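The effect of the sal1 mutation on leaf transcripts of Arabidopsis thaliana was set against the effect of the msh1 mutation. Each effect was the libraries labelled with the mutation minus those of a wild type grown under the same day length, a pair called a set here, and the difference of effects was the sal1 effect minus the msh1 effect. This used 12 of the 30 libraries of the series, in 4 groups of 3: sal1 under 12 h of light per day, the wild type that the labels name for it under 12 h, msh1 under 16 h of light, and the wild type labelled for 16 h with no mutant named. All were labelled as leaves of the accession Col-0 at bolting, without heat treatment, while the text on the whole series speaks of aboveground tissue at bolting or flowering, and of full siblings as biological replicates. The sources used here give no allele for either mutant. Each mutant was used here under a single day length, so that genotype, day length and set cannot be told apart in the difference of effects.

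SAL1 is a phosphatase of plastids and mitochondria that degrades PAP (3′-phosphoadenosine 5′-phosphate), a by-product of reactions that transfer sulfate from the donor PAPS. PAP builds up under drought and high light, moves to the nucleus and inhibits exoribonucleases of the XRN family, and sal1 mutants are known for raised stress transcripts and drought tolerance. MSH1 is a homologue of the bacterial mismatch repair protein MutS that acts in plastids and mitochondria, where it limits recombination between repeats of the organelle genomes. Its loss is known for altered growth and for a reprogramming of stress and hormone transcripts.

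The values are deposited counts of reads per gene, given here as CPM, that is, scaled for the total and the composition of each library. The 12 libraries held 15632452 to 22275044 gene counts, with 23313 to 25158 genes detected, and 48.2% to 49.8% of all entries in their files were assigned to no gene. The leaf label was met: 7 leaf mesophyll markers such as antenna proteins and Rubisco subunits summed to 6563 to 10132 CPM in the sal1 libraries, against 12946 to 19705 CPM in their wild type, and to 30770 to 36259 CPM in the msh1 libraries, against 40451 to 48538 CPM in their wild type. The sums thus differed between sets as well as within them, and their part in the results below was not tested. SAL1 (AT5G63980, chromosome 5, 25610002 to 25611802 in TAIR10.1 coordinates) was at 263, 192 and 210 CPM in the libraries labelled sal1, against 79.7, 68 and 63.8 CPM in their wild type (log2 fold change 1.65 ± 0.12 SE, edgeR adjusted p = 4.07e-07). MSH1 (AT3G24320, chromosome 3, 8822924 to 8829728) was at 27.5, 31.1 and 27.1 CPM in the libraries labelled msh1, against 10.6, 10.6 and 11.2 CPM in their wild type (1.40 ± 0.15, edgeR adjusted p = 3.25e-05). Neither transcript was lower in the mutant named for it, so transcript level does not check the labels, every direction below rests on them, and the groups are called sal1-labelled and msh1-labelled.

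The 2 effects ran against each other for a large group of genes. A gene was called at a Benjamini-Hochberg adjusted p under 0.05 in edgeR's quasi-likelihood test, with all 4 groups in a single fit of 22156 genes. The difference of effects was called for 11232 genes (50.7% of those tested), 5912 with a more positive (26.7%) and 5320 with a more negative (24%) sal1 effect. The sal1 effect was called for 11299 genes (51%), 5924 higher and 5375 lower (26.7% and 24.3%), and the msh1 effect for 6803 genes (30.7%), 3305 higher and 3498 lower (14.9% and 15.8%). With library totals in place of the scaling for composition, the msh1 calls were 4896 higher and 2312 lower. Of 4140 genes called in both effects (36.6% of the sal1 calls and 60.9% of the msh1 calls), 80.1% had opposite signs. With an effect called in both mutants, with opposite signs, and a called difference, 1535 genes (6.93%) were higher in sal1-labelled and lower in msh1-labelled leaves, and 1783 genes (8.05%) were lower in sal1-labelled and higher in msh1-labelled leaves. The same sign with a differing size was found for 206 genes (0.93%). As background for single genes, the libraries of mutant and wild type did not overlap for 57.9% of tested genes in sal1, for 46.3% in msh1 and for 28.2% in both. Across all tested genes the 2 effects had a Spearman rho of -0.301 and a Pearson r of -0.0933, over genes, which are not independent replicates.

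**Figure D1:**
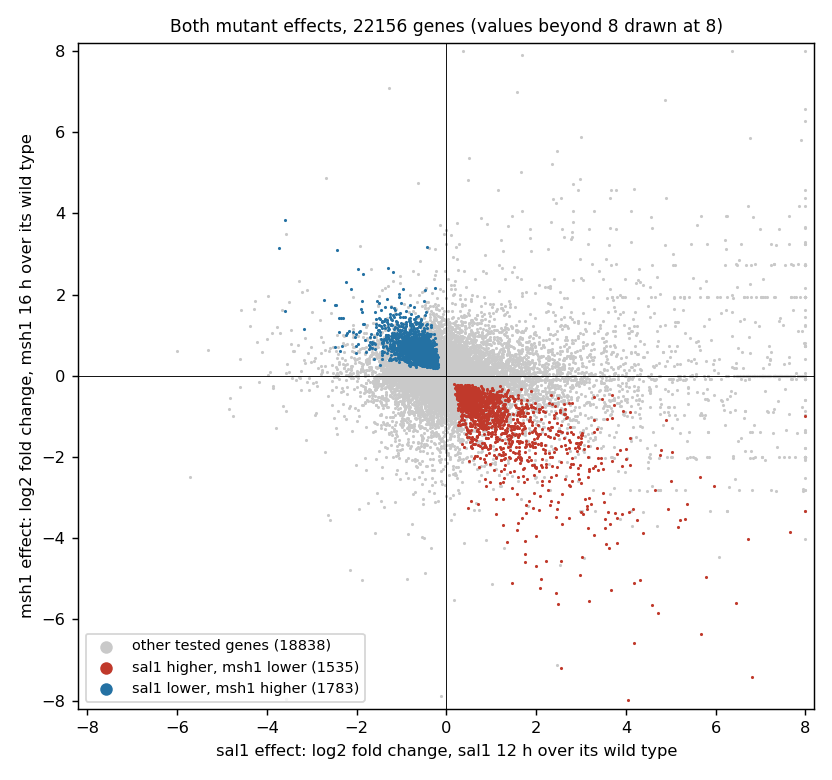
Each point is 1 of 22156 tested genes, with the log2 fold change of sal1 12 h over its wild type on the x axis and that of msh1 16 h over its wild type on the y axis. The 1535 red genes lie at lower right and reach larger sizes than the 1783 blue genes at upper left.

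The 2 opposite groups differed in size. Among genes higher in sal1-labelled leaves the median log2 fold change was 0.82 in sal1 and -0.80 in msh1, and 429 of them passed a log2 size of 1 in both. Among genes lower in sal1-labelled leaves the medians were -0.60 and 0.60, and 108 passed that size in both. The lower group held more abundant transcripts, with a median of 38 CPM over the 4 groups against 25.1 CPM in the higher group and 14.9 CPM over all tested genes. Over all tested genes the median effect was 0.0059 in sal1 and -0.0062 in msh1, which is the level the medians of gene lists below are read against.

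Genes for ribosomal proteins made up the largest block by count, among the gene lists examined, of the group that was lower in sal1-labelled and higher in msh1-labelled leaves. Theirs was also the longest of these lists. They build the subunits that translate messenger RNA, and were taken by the words of their product names, which do not in all cases tell cytosolic from organelle ribosomes. Of 224 tested, 145 were lower in sal1 and higher in msh1, a class that held 8.05% of all tested genes. Another 1 did the reverse, 30 were called in sal1 alone, 21 in msh1 alone, and 24 had no called difference. In 4 of the 224 genes a group had no counts. Their median log2 fold change was -0.50 in sal1 and 0.54 in msh1, with 203 of them below 0 in sal1 and 209 above 0 in msh1. Summed over the list, the level was 15669 to 17570 CPM in sal1-labelled libraries, against 22997 to 25497 CPM in their wild type. It was 32889 to 34451 CPM in msh1-labelled libraries, against 20904 to 26764 CPM in theirs. The groups did not overlap in either set.

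**Figure D2:**
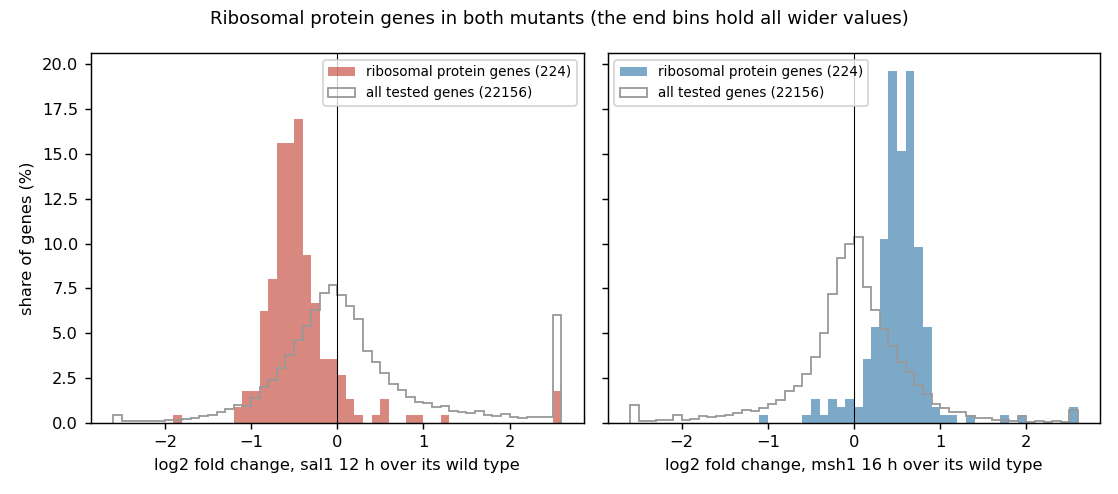
Share of genes (y axis, percent) by log2 fold change (x axis) of sal1 12 h (left) and msh1 16 h (right) over their wild types, for 224 ribosomal protein genes (filled) and all 22156 tested genes (outline). The filled distributions lie left of 0 in sal1 (median -0.50) and right of 0 in msh1 (median 0.54), while the outlines centre near 0.

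Single ribosomal genes, chosen after their values were seen, showed the same pattern with little spread. AT1G18540, of the ribosomal protein L6 family, was at 131, 121 and 119 CPM in sal1-labelled libraries, against 234, 200 and 230 CPM in their wild type. In msh1-labelled libraries, AT1G18540 was at 323, 320 and 332 CPM, against 186, 182 and 233 CPM in theirs. AT5G59850, of the S8 family, was at 74.6, 64.5 and 64 CPM in sal1, against 112, 105 and 126 CPM in its wild type. In msh1, AT5G59850 was at 149, 147 and 141 CPM, against 84.5, 87.6 and 102 CPM in its wild type. AT3G58660, of the L1p/L10e family, was at 31.4, 29.1 and 31.2 CPM in sal1, against 42.2, 50 and 50.8 CPM in its wild type. In msh1, AT3G58660 was at 71.4, 74.4 and 64.8 CPM, against 30.6, 32 and 35.3 CPM in its wild type. No mutant library overlapped its wild type for any of the 3 genes. The differences of effects were -1.54 ± 0.15, -1.42 ± 0.14 and -1.75 ± 0.13 (log2 ± SE), with edgeR adjusted p of 5.83e-06, 6.21e-06 and 8.88e-07. Exons on the other strand overlap 0.401 of the exonic bases of AT1G18540 and 0.111 of those of AT5G59850, and the counting is not stated to use strand, so reads of those neighbours cannot be told apart.

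Most DNA replication genes were lower in sal1-labelled and higher in msh1-labelled leaves. The list holds the MCM helicase subunits, the sliding clamp, the licensing factors and ribonucleotide reductase, which makes deoxynucleotides. Of 16 tested, 13 were lower in sal1 and higher in msh1 and 0 did the reverse, with medians of -0.65 in sal1 and 0.66 in msh1. TSO2 (AT3G27060), a small subunit of ribonucleotide reductase, was at 30.7, 17.3 and 22.6 CPM in sal1-labelled libraries, against 112, 92.8 and 87.3 CPM in their wild type. In msh1-labelled libraries, TSO2 was at 99.6, 124 and 120 CPM, against 49.5, 51.8 and 75.4 CPM in theirs. RNR1 (AT2G21790), its large subunit, was at 53.6, 37.3 and 50.2 CPM in sal1, against 105, 89.3 and 98.3 CPM in its wild type. In msh1, RNR1 was at 142, 136 and 143 CPM, against 63.2, 71.3 and 75.2 CPM in its wild type. For both genes every mutant library lay outside the range of its wild type. The log2 fold changes of TSO2 were -2.05 ± 0.21 in sal1 (edgeR adjusted p = 6.64e-06) and 0.96 ± 0.20 in msh1 (0.00281), and those of RNR1 -1.05 ± 0.12 (2.08e-05) and 1.01 ± 0.12 (7.18e-05). MCM2 (AT1G44900), a subunit of the replicative helicase, averaged 18.6 ± 3.64 CPM in sal1, against 29.3 ± 1.51 CPM in its wild type, and 36.6 ± 2.76 CPM in msh1, against 22.8 ± 1.39 CPM in its wild type (SD, n = 3 each). MCM7, PCNA1 (the sliding clamp) and CDT1A (a licensing factor) had differences of effects of -1.54 ± 0.18, -1.78 ± 0.20 and -1.49 ± 0.17 (edgeR adjusted p of 2.66e-05, 1.58e-05 and 2.23e-05).

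Genes of mitosis were called mainly on the sal1 side. Of 18 mitotic cyclins, kinases and cytokinesis genes, 15 were lower in sal1 and 0 higher, 4 were higher in msh1 and 0 lower, and 3 met all conditions for opposite effects (medians -1.08 in sal1 and 0.63 in msh1). CDC20.2 (AT4G33260), an activator of the anaphase-promoting complex, was at 4.31, 2.04 and 2.48 CPM in sal1, against 14.6, 7.87 and 8.69 CPM in its wild type. In msh1, CDC20.2 was at 14.6, 14.9 and 22.7 CPM, against 9.37, 9.63 and 9.43 CPM in its wild type. It lay apart from its wild type in both sets (log2 -1.81 ± 0.29, edgeR adjusted p = 0.000283, in sal1 and 0.88 ± 0.27, 0.0263, in msh1). HIK, a kinesin of cytokinesis, was called in sal1 (-1.30 ± 0.29, edgeR adjusted p = 0.00244) but not in msh1 (0.70 ± 0.27, 0.0645). Of 19 core histone genes, 8 were lower in sal1 and higher in msh1, 0 did the reverse, and 8 were called in sal1 alone (medians -0.69 and 0.33). In bulk leaf RNA, fewer cells of a type and less RNA per cell cannot be told apart, which applies to dividing cells here.

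Genes that maintain the organelle genomes, the process MSH1 itself belongs to, were also lower in sal1 and higher in msh1 for most called members. Of 16 tested, 9 were lower in sal1 and higher in msh1 and 0 did the reverse, with medians of -0.46 in sal1 and 0.69 in msh1. MSH1 is a member and was at 12.3, 8.84 and 12.3 CPM in sal1-labelled libraries, against 14.7, 18.7 and 21.3 CPM in their wild type (log2 -0.71 ± 0.15, edgeR adjusted p = 0.00156), beside the higher level in msh1-labelled libraries given above. GYRB2 (AT5G04130), the B subunit of the organelle DNA gyrase, was at 20.6, 12.3 and 16.9 CPM in sal1, against 38.9, 41.6 and 41.7 CPM in its wild type. In msh1, GYRB2 was at 65.3, 63.4 and 68.9 CPM, against 26.4, 29.3 and 34.7 CPM in its wild type. WHY3 (AT2G02740), a single-stranded DNA-binding WHIRLY protein, was at 13.7, 7.93 and 10.5 CPM in sal1, against 21.5, 20 and 26.1 CPM in its wild type. In msh1, WHY3 was at 37, 32 and 35.4 CPM, against 11.1, 14.2 and 18.8 CPM in its wild type. Neither gene overlapped between mutant and wild type in either set. GYRB2 had log2 fold changes of -1.29 ± 0.15 in sal1 and 1.13 ± 0.15 in msh1, and WHY3 of -1.07 ± 0.20 and 1.24 ± 0.20 (edgeR adjusted p for the differences 2.65e-06 and 3.21e-05). GYRA, the A subunit of the gyrase, WHY2, the WHIRLY protein of mitochondria, and POLGAMMA1, an organelle DNA polymerase, had differences of -1.74 ± 0.17, -1.44 ± 0.16 and -1.07 ± 0.14 (6.83e-06, 1.54e-05 and 4.2e-05).

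Promoters of many ribosomal protein genes, and of some replication and organelle DNA genes, held the telo-box (AAACCCTA) or site II elements (GGCCCA or AGCCCA), which are known from promoters of plant ribosomal protein and cell proliferation genes. The sequences below run from 250 bases before to 50 bases after the annotated start, on the strand of the gene, as RefSeq gives them for TAIR10.1. The capitals mark these elements on either strand, and in RNR1 also the E2F site (TTTCCCGC), a binding sequence of the E2F factors of replication genes. They are shown for a pair of ribosomal protein genes (AT1G18540 at chr1:6378531-6378830, minus strand, and AT5G59850 at chr5:24113568-24113867, minus strand), for RNR1 (chr2:9293011-9293310, plus strand) and for GYRB2 (chr5:1128095-1128394, minus strand). RNR1 and GYRB2 are among the few of their lists with a telo-box, which 2 of 16 promoters held in each.
AT1G18540: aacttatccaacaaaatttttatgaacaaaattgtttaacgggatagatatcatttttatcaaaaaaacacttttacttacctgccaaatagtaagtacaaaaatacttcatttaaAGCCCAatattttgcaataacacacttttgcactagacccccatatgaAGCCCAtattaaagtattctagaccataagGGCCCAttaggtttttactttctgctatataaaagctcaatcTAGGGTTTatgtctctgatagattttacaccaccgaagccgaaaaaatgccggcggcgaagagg
AT5G59850: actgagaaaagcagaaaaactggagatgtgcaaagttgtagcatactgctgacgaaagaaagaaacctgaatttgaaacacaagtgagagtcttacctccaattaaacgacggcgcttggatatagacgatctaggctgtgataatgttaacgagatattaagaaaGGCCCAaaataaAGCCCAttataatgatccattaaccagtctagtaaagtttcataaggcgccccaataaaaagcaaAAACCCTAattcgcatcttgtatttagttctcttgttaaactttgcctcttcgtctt
RNR1: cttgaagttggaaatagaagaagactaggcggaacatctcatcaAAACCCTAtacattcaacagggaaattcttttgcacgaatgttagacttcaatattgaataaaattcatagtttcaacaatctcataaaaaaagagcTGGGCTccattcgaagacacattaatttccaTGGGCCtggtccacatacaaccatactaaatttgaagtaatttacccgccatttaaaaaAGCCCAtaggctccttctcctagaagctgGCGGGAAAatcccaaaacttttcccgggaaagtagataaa
GYRB2: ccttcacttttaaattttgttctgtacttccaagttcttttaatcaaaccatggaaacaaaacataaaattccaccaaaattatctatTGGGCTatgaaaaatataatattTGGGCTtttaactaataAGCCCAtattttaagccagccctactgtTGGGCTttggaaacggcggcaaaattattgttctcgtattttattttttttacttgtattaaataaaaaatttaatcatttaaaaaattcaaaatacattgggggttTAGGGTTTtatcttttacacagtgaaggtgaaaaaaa
The telo-box starts 14 bases before the annotated start in AT1G18540, 7 before it in AT5G59850, 206 before it in RNR1 and at base 14 from it in GYRB2, counting the start as 1, and GYRB2 holds AGCCCA 4 times.

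The shares of promoters with these elements differed between the groups. Windows were read for 20724 tested protein-coding genes and 11 motifs were searched on both strands. The telo-box was in 17.6% of 1732 promoters of genes lower in sal1 and higher in msh1, in 1.83% of 1472 promoters of genes with the reverse pattern, in 39.3% of those of ribosomal protein genes, and in 5.62% of all. GGCCCA was in 34.7% and 10.1% of promoters of the 2 opposite groups in the same order, in 57.1% of those of ribosomal protein genes, and in 18.2% of all. AGCCCA was in 27.6% and 8.83%, against 16.1% of all. In the smaller lists the telo-box was in 12.5% of promoters of replication genes, 12.5% of organelle DNA genes and 5.26% of histone genes. GGCCCA was in 56.2%, 31.2% and 31.6% of them in that order, and AGCCCA in 43.8%, 12.5% and 36.8%. The E2F site was in 31.2% of promoters of the replication list and in 0.859% of all. It was in 2.02% of promoters of genes lower in sal1 and higher in msh1, and in 0.136% of those with the reverse pattern. Motifs of the group that was higher in sal1 and lower in msh1 were the G-box, the ABRE and the DRE. The G-box (CACGTG) was in 16% of the promoters of that group, 5.66% of the other opposite group and 8.64% of all. The ABRE (ACGTGTC), an element of the abscisic acid response, was in 7.74%, 2.89% and 4.83%, and the DRE (GCCGAC) in 6.66%, 2.89% and 3.57%. The variant ACGTGGC was in 7.34%, 4.39% and 4.65%, and the G-box and the ABRE letters can overlap. The W-box (TTGACC) was in 13.9%, 14.3% and 14.3%, and the evening element (AAAATATCT) in 3.94%, 4.39% and 2.95%. The variant E2F letters TTTGGCGC were in 0.272%, 1.04% and 0.473%. A match is a description of the letters and not of a bound site.

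**Figure D3:**
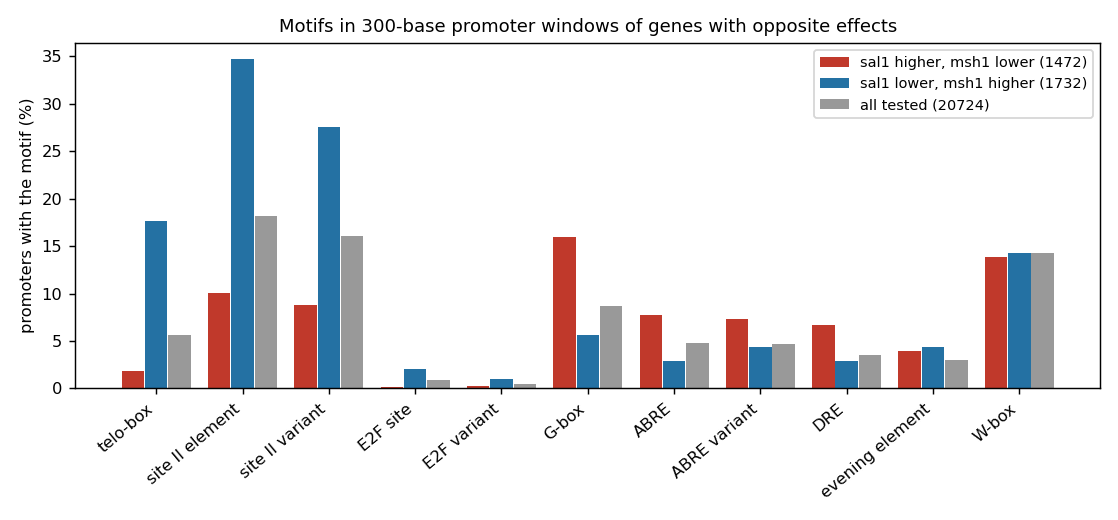
Share of 300-base promoter windows (y axis, percent) that hold each of 11 motifs (x axis), for genes higher in sal1 and lower in msh1 (red), for genes lower in sal1 and higher in msh1 (blue) and for all tested protein-coding genes (grey). The blue bars exceed the grey for the telo-box, both site II motifs and, at small shares, both E2F motifs. The red bars exceed the grey for the G-box, both ABRE motifs and the DRE, and both colours do for the evening element. The 3 bars are close for the W-box.

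Some genes of iron regulation and transport were lower in sal1-labelled and higher in msh1-labelled leaves, and others, the ferritin FER1 among them, ran the other way. Iron-responsive transcription factors and the ubiquitin ligase BRUTUS (BTS, AT3G18290) set how much iron a leaf takes up and moves, nicotianamine and the transporter OPT3 move it in the phloem, and ferritins store it. Of 21 tested iron and copper genes, 4 were lower in sal1 and higher in msh1, 3 did the reverse, and 7 were called in sal1 alone (medians -0.69 and 0.68). BTS was at 158, 111 and 93.3 CPM in sal1, against 666, 587 and 528 CPM in its wild type. In msh1, BTS was at 388, 512 and 320 CPM, against 141, 114 and 203 CPM in its wild type. NAS4 (AT1G56430), a nicotianamine synthase, was at 14, 9.25 and 10.1 CPM in sal1, against 71.9, 54.6 and 60.8 CPM in its wild type. In msh1, NAS4 was at 47.4, 73.6 and 51 CPM, against 14.3, 14.3 and 22.3 CPM in its wild type. FER1 (AT5G01600), a plastid ferritin, was at 119, 223 and 225 CPM in sal1, against 27.6, 41.3 and 44.6 CPM in its wild type. In msh1, FER1 was at 48.5, 56.7 and 50.5 CPM, against 153, 178 and 116 CPM in its wild type. Mutant and wild-type libraries did not overlap for any of the 3 genes in either set. The log2 fold changes were -2.30 ± 0.24 in sal1 and 1.42 ± 0.24 in msh1 for BTS, -2.49 ± 0.22 and 1.75 ± 0.22 for NAS4, and 2.32 ± 0.25 and -1.52 ± 0.24 for FER1 (edgeR adjusted p for the differences 3.87e-06, 7.88e-07 and 3.45e-06).

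The other 2 opposite members of that direction were OPT3, with a difference of -2.85 ± 0.34 (edgeR adjusted p = 2.48e-05), and PYE, a bHLH factor of the iron response, with -2.49 ± 0.32 (4.54e-05). FRO3, a ferric reductase of mitochondria, fell in sal1 (-3.14 ± 0.36, edgeR adjusted p = 1.94e-05) and had 0.93 ± 0.34 in msh1 (0.0515). BHLH100, an iron-deficiency factor, fell in sal1 to 5.97, 2.09 and 0.285 CPM, against 62.5, 41.4 and 27.4 CPM in its wild type. In msh1 it was at 11.4, 16.3 and 4.91 CPM, against 0.233, 0.474 and 7.23 CPM in its wild type, where the libraries overlapped and the effect was not called (edgeR adjusted p = 0.115). Among the 10 lowest differences of all opposite genes, BTS and NAS4 stood beside 3 genes known here by identifier, AT1G47400 (-4.61 ± 0.93), AT1G47395 (-4.53 ± 0.89) and AT5G05250 (-4.59 ± 0.58), with edgeR adjusted p of 0.00124, 0.00105 and 4.06e-05. The promoter of BTS (chr3:6273716-6274015, plus strand) is shown because it holds CACGTG 3 times, ACGTGTC once and ACGTGGC in 2 places, all in capitals, some of them overlapping.
BTS: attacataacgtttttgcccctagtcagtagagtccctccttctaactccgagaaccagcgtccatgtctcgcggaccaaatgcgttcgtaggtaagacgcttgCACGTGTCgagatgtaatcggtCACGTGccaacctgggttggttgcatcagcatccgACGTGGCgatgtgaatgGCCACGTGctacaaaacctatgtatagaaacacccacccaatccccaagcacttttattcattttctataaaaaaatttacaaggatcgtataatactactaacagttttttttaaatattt
G-boxes were in 38.1% and ACGTGTC in 33.3% of the promoters of the iron and copper list, against 8.64% and 4.83% of all promoters.

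Tetrapyrrole genes split within the pathway. Of 22 tested genes of chlorophyll synthesis, 5 were lower in sal1 and higher in msh1 and 3 showed the reverse. Among the enzymes of the steps from glutamate semialdehyde to protoporphyrin, GSA1, HEMC and HEMF1 were lower in sal1 and higher in msh1. Their differences were -1.41 ± 0.14, -1.78 ± 0.22 and -1.39 ± 0.14 (edgeR adjusted p of 8.06e-06, 3.14e-05 and 8.46e-06). HEMA1 (AT1G58290), the glutamyl-tRNA reductase that starts and sets the rate of the pathway, was at 152, 184 and 140 CPM in sal1, against 65.1, 59.9 and 52.1 CPM in its wild type. In msh1, HEMA1 was at 128, 117 and 179 CPM, against 459, 515 and 422 CPM in its wild type. Its libraries did not overlap in either set (log2 1.43 ± 0.16 in sal1 and -1.72 ± 0.16 in msh1, edgeR adjusted p for the difference 7.71e-07). Against another 12 h wild type, described below, the sal1 effect on HEMA1 was -0.07 ± 0.18 (edgeR adjusted p = 0.748), so its rise in sal1 depended on the wild type. GUN4, a regulator of magnesium chelatase, had 0.35 ± 0.12 in sal1 and -1.68 ± 0.12 in msh1 but shares 0.73 of its exonic bases with exons on the other strand. The sal1 effect on GUN4 with the other 12 h wild type was -1.12 ± 0.16, the opposite sign (edgeR adjusted p = 5.68e-05). Of the 3 genes higher in sal1 and lower in msh1, 0 were called opposite again with the other 12 h wild type and 3 with the other 16 h wild type. Of the 5 in the reverse direction it was 5 and 3. CAO, which makes chlorophyll b, was called in msh1 (-1.95 ± 0.12, edgeR adjusted p = 4.23e-07) and not in sal1 (0.028 ± 0.12, 0.864). This also depended on the wild type. Scaled over all 30 libraries, CAO was at 70.7, 74.6 and 70 CPM in sal1, against 123, 179 and 154 CPM in the other 12 h wild type.

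The sigma factors, nuclear-encoded proteins that direct the plastid RNA polymerase to its promoters, also split. SIG5 (AT5G24120), a light- and stress-responsive member, was at 11.6, 16.7 and 15.6 CPM in sal1, against 7.22, 6.39 and 6.68 CPM in its wild type. In msh1, SIG5 was at 5.4, 4.13 and 5.6 CPM, against 60.1, 53.8 and 47.2 CPM in its wild type. SIG1 had 0.52 ± 0.11 in sal1 and -1.41 ± 0.11 in msh1, in the same direction as SIG5. SIG2, SIG4 and SIG6 ran the other way, with differences of -1.06 ± 0.19, -1.30 ± 0.19 and -1.14 ± 0.18 (edgeR adjusted p of 0.00061, 9.91e-05 and 0.000206). For SIG4, and for WHY2, HEMC, ASB1 and PAT1 elsewhere in the text, exons on the other strand overlap a share of 0.101 to 0.161 of the exonic bases. Against the other 12 h wild type the sal1 effects on SIG5 and SIG1 were -1.01 ± 0.14 and -0.54 ± 0.13, the opposite sign (edgeR adjusted p of 5.7e-05 and 0.00328). SIG2, SIG4 and SIG6 were all called opposite again with that wild type. With the other 16 h wild type SIG4 was, while the msh1 effects on SIG2 and SIG6 were -0.046 ± 0.14 and 0.23 ± 0.11 (edgeR adjusted p of 0.828 and 0.127). Antenna proteins, photosystem core proteins and flowering time genes held 0 opposite genes among 19, 28 and 26 tested.

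Many drought and abscisic acid genes were higher in sal1-labelled and lower in msh1-labelled leaves. Abscisic acid is the hormone of water deficit, and its signal runs through clade A protein phosphatases (HAB1, HAI2 and others) to transcription factors and protective proteins. Of 30 tested, 15 were higher in sal1 and lower in msh1 and 1 did the reverse, with medians of 0.69 in sal1 and -1.51 in msh1. RD20 (AT2G33380), a drought-induced caleosin, was at 91.9, 315 and 167 CPM in sal1, against 12.7, 19.5 and 10.2 CPM in its wild type. In msh1, RD20 was at 6.53, 5.88 and 6.11 CPM, against 76.5, 69.5 and 46.4 CPM in its wild type. HB-12 (AT3G61890), a homeodomain-leucine zipper factor, was at 22, 41.1 and 31.6 CPM in sal1, against 7.46, 11.6 and 9.71 CPM in its wild type. In msh1, HB-12 was at 4.26, 3.07 and 3.09 CPM, against 20, 14.9 and 15.9 CPM in its wild type. Every sal1-labelled library was above and every msh1-labelled library below its wild type for both genes. RD20 changed by 3.77 ± 0.39 in sal1 (edgeR adjusted p = 9.13e-06) and by -3.37 ± 0.41 in msh1 (7.56e-05), HB-12 by 1.72 ± 0.22 (4.99e-05) and -2.29 ± 0.25 (3.61e-05). HB-7, the close relative of HB-12, HAB1 and HAI2 had differences of 3.61 ± 0.32, 2.41 ± 0.22 and 3.59 ± 0.33 (edgeR adjusted p of 2.9e-06, 3.73e-06 and 3.73e-06). P5CS1, which starts proline synthesis, averaged 203 ± 20.2 CPM in sal1, against 127 ± 21.1 CPM in its wild type, and 92.4 ± 12.9 CPM in msh1, against 366 ± 5.32 CPM in its wild type (SD, n = 3 each). Its sal1 effect had the opposite sign with the other 12 h wild type (-0.94 ± 0.12, edgeR adjusted p = 2.82e-05). RD29B, a protective hydrophilic protein, was called in msh1 alone (-5.52 ± 0.58, edgeR adjusted p = 2.81e-05, beside 0.16 ± 0.42, 0.768, in sal1). Its lack of a sal1 effect depended on the wild type. Scaled over all 30 libraries, RD29B was at 5.17, 2.47 and 1.65 CPM in sal1, against 26.9, 7.42 and 26.5 CPM in the other 12 h wild type.

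The promoter of RD20 (chr2:14146506-14146805, minus strand) is shown for its G-box and ABRE letters, in capitals, of which CACGTG occurs 2 times and ACGTGTC 2 times, overlapping in the stretch that begins at base 13, counting the annotated start as 1.
RD20: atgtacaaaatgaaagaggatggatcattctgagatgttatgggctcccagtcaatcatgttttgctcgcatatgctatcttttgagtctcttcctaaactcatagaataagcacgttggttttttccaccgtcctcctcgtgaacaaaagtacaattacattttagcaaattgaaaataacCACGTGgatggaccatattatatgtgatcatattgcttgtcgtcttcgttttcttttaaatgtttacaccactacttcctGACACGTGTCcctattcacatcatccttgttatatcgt
ACGTGTC was in 30% of the promoters of the drought and abscisic acid list, against 4.83% of all promoters.

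A part of the heat shock genes was higher in sal1-labelled and lower in msh1-labelled leaves, with no heat treatment in any of the groups. Of 15 tested chaperones and heat shock factors, 5 were higher in sal1 and lower in msh1 and 0 did the reverse (medians 0.88 and -0.73). HSP70, a cytosolic chaperone induced by heat (AT3G12580), was at 33.5, 63.7 and 38.4 CPM in sal1, against 16.7, 25.6 and 27.3 CPM in its wild type. In msh1, HSP70 was at 5.83, 4.4 and 3.66 CPM, against 17.3, 18.2 and 16.2 CPM in its wild type. HSP18.2 (AT5G59720), a small heat shock protein, was at 10.8, 9.16 and 9.89 CPM in sal1, against 2.85, 2.4 and 1.74 CPM in its wild type. In msh1, HSP18.2 was at 2.97, 1.91 and 2.86 CPM, against 3.61, 5.35 and 7.17 CPM in its wild type. The groups were apart for both genes (differences 2.85 ± 0.35 and 3.17 ± 0.37, edgeR adjusted p of 3.54e-05 and 2.13e-05). HSFB1 and HSFB2A, class B heat shock factors, and HSP90.1 had differences of 2.09 ± 0.40, 2.21 ± 0.37 and 1.34 ± 0.29 (edgeR adjusted p of 0.000845, 0.00035 and 0.00185).

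Most jasmonate genes were higher in sal1-labelled and lower in msh1-labelled leaves. Jasmonate is made from plastid fatty acids by lipoxygenases (LOX), allene oxide synthase (AOS) and cyclases (AOC) and then by the peroxisomal reductase OPR3, JAZ proteins repress its response and are induced by it, and CYP94 enzymes and ILL6 break down its active form. Of 13 tested synthesis genes, 11 were higher in sal1 and lower in msh1, and of 24 response genes 18, with 0 in the reverse direction in both lists. The medians were 1.23 in sal1 and -1.31 in msh1 for synthesis, and 1.91 and -1.40 for response. AOC1 (AT3G25760) was at 155, 269 and 294 CPM in sal1, against 58.2, 69.9 and 44.1 CPM in its wild type. In msh1, AOC1 was at 28.7, 52.5 and 29.9 CPM, against 389, 412 and 294 CPM in its wild type. JAZ1 (AT1G19180) was at 104, 215 and 133 CPM in sal1, against 24.3, 28.4 and 25.3 CPM in its wild type. In msh1, JAZ1 was at 18.4, 18 and 16.7 CPM, against 44.9, 47.1 and 45.5 CPM in its wild type. Both had groups that did not overlap, with differences of 5.36 ± 0.40 and 3.91 ± 0.28 (edgeR adjusted p of 9.76e-07 and 8.08e-07). LOX3, LOX4, AOC3 and OPR3 had differences of 3.31 ± 0.24, 3.43 ± 0.22, 3.38 ± 0.27 and 2.71 ± 0.21, and JAZ5, CYP94B1 and ILL6 of 4.46 ± 0.32, 7.69 ± 0.62 and 3.52 ± 0.26, all called.

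The other wild types of the series were set against both mutants, because the choice of wild type sets the sign of some effects. At 16 h this was the wild type that the labels pair with hda6, whose files also held 49.4% to 49.7% of entries in no gene. At 12 h it was the wild type labelled with no mutant named, which held 32876383 to 33747006 gene counts and only 2.85% to 6.03% of entries in no gene, a difference whose part in its values was not tested. Set against the other 16 h wild type, 716 of the 1535 genes higher in sal1 and lower in msh1 and 1256 of the 1783 genes lower in sal1 and higher in msh1 were called opposite again. With the other 12 h wild type, an alternative chosen after seeing the data, it was 754 and 1165. Ribosomal protein genes were called again for 131 of 145 with the other 16 h and 101 of 145 with the other 12 h wild type, replication genes for 10 and 9 of 13, histones for 7 and 6 of 8, mitosis genes for 1 and 1 of 3, and organelle DNA genes for 9 and 7 of 9. The 4 iron genes lower in sal1 and higher in msh1 were called again with both, and of the 3 in the reverse direction 2 were with each. Drought and abscisic acid genes were called again for 10 and 11 of 15 and heat shock genes for 4 and 5 of 5. With the other 12 h wild type the drought list had a median sal1 effect of 0.367, in place of 0.692. Then 14 of its genes were higher and 9 lower in sal1, in place of 19 and 2. Its median msh1 effect with the other 16 h wild type was -0.805, in place of -1.51. Of the genes named so far, MCM7, CDT1A and WHY2 had sal1 effects of -0.30 ± 0.14, -0.017 ± 0.14 and -0.091 ± 0.11 with the other 12 h wild type, none of them called (edgeR adjusted p of 0.0678, 0.925 and 0.486). CDC20.2, PCNA1 and HEMC had msh1 effects of 0.69 ± 0.27, 0.33 ± 0.13 and 0.36 ± 0.15 with the other 16 h wild type, also not called (0.0591, 0.0594 and 0.0665). The same held for AT1G47395 (1.17 ± 0.51, edgeR adjusted p = 0.0881) and HSP90.1 (-0.29 ± 0.20, 0.294).

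Jasmonate calls depended on the wild type of msh1. Only 2 of 11 synthesis genes and 1 of 18 response genes were called opposite again with the other 16 h wild type, and the median msh1 effect was -0.0075 and 0.44 in place of -1.31 and -1.40. JAZ1 and ILL6 were higher in msh1 than in that wild type (0.87 ± 0.24 and 0.63 ± 0.21, edgeR adjusted p of 0.0107 and 0.0336). VSP2 (AT5G24770), a vegetative storage protein induced by jasmonate and chosen after its values were seen, shows the levels behind this, here scaled over all 30 libraries. It was at 1800, 4480 and 4050 CPM in sal1-labelled libraries, against 210, 60.2 and 78.2 CPM in their wild type and 479, 1710 and 834 CPM in the other 12 h wild type. It was at 26.8, 37.3 and 14 CPM in msh1-labelled libraries, against 266, 246 and 240 CPM in their wild type and 10.9, 11.9 and 26.7 CPM in the other 16 h wild type. The msh1-labelled libraries were below their own wild type and overlapped the other (log2 0.66 ± 0.52, edgeR adjusted p = 0.358), while the sal1-labelled libraries were above both. On the sal1 side 12 of 18 response genes and 4 of 11 synthesis genes were called opposite again with the other 12 h wild type. The list medians in sal1 were then 0.70 for response and 0.23 for synthesis, and AOC1 had 0.23 ± 0.28 (edgeR adjusted p = 0.492).

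**Figure D4:**
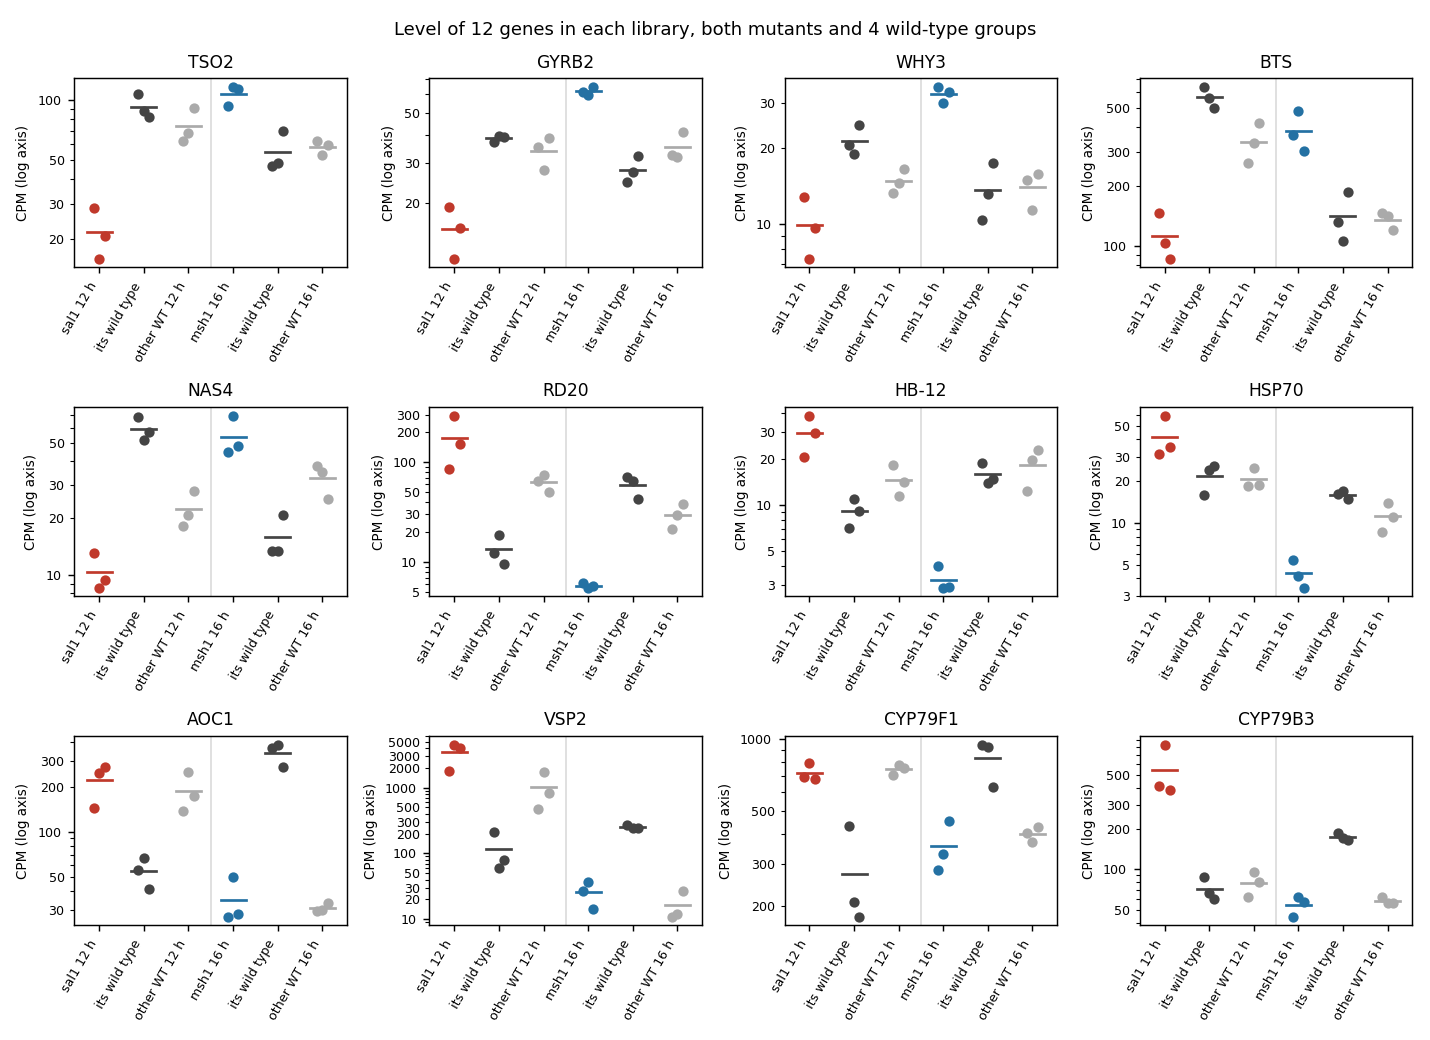
Level of 12 genes (y axis, CPM scaled over all 30 libraries, log axis) in each library of both mutants, of their wild types and of the other wild type of the same day length (x axis), with a bar at each mean. TSO2, GYRB2, WHY3, BTS, NAS4, RD20, HB-12 and HSP70 keep each mutant outside the range of both of its wild types, whereas AOC1, VSP2, CYP79F1 and CYP79B3 in msh1 overlap the other 16 h wild type. In sal1, AOC1 and CYP79F1 also overlap the other 12 h wild type.

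Aliphatic glucosinolates, sulfur-rich defence compounds made from methionine, had 13 of 17 tested genes higher in sal1 and lower in msh1 and 0 in the reverse direction (medians 0.92 and -1.13). CYP79F1 (AT1G16410), which makes the aldoxime that commits chain-elongated methionine to the pathway, was at 747, 857 and 741 CPM in sal1, against 453, 218 and 191 CPM in its wild type. In msh1, CYP79F1 was at 301, 350 and 483 CPM, against 1012, 998 and 678 CPM in its wild type. The groups were apart in both sets (1.44 ± 0.29 and -1.25 ± 0.29, edgeR adjusted p for the difference 0.000156). CYP79F2, its neighbour and relative, the sulfotransferase SOT17, the regulator MYB76, the plastid carrier BASS5 and the oxygenase FMO_GS-OX3 had differences of 3.41 ± 0.25, 3.08 ± 0.23, 3.09 ± 0.44, 3.01 ± 0.31 and 2.31 ± 0.30, all called. Of the 13, 1 was called opposite again with the other 16 h wild type and 3 with the other 12 h wild type. SOT17 kept a lower level in msh1 against the other wild type (-0.71 ± 0.15, edgeR adjusted p = 0.00272) and CYP79F1 did not (-0.18 ± 0.26, 0.622). The list's median sal1 effect with the other 12 h wild type was -0.25, with 3 genes higher and 8 lower in sal1. The sal1 effect was then -0.06 ± 0.18 on CYP79F1 (edgeR adjusted p = 0.788) and 0.59 ± 0.12 on SOT17 (0.000918).

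Many genes of indolic glucosinolates and of tryptophan, their precursor, were higher in sal1-labelled leaves. Of 18 indolic glucosinolate genes and myrosinases, 8 were higher in sal1 and lower in msh1 and 2 did the reverse, and of 7 tryptophan synthesis genes 5 and 1. CYP79B3 (AT2G22330), which turns tryptophan into an aldoxime, was at 443, 901 and 421 CPM in sal1, against 91.2, 70.4 and 63.8 CPM in its wild type. In msh1, CYP79B3 was at 47.6, 66.2 and 60.5 CPM, against 199, 183 and 177 CPM in its wild type. The groups did not overlap (2.97 ± 0.27, edgeR adjusted p = 2.51e-06, and -1.68 ± 0.26, 0.000354), and the relative CYP79B2 had 2.50 ± 0.21 and -1.47 ± 0.21. Against the other 12 h wild type the sal1 effects of CYP79B3 and CYP79B2 were 2.77 ± 0.27 and 2.49 ± 0.22, close to those above. Against the other 16 h wild type the msh1 effects were -0.10 ± 0.25 and 0.54 ± 0.20 (edgeR adjusted p of 0.782 and 0.0556), and 0 of the 8 were called opposite again, while 7 of the 8 were with the other 12 h wild type. IGMT5, a methyltransferase of indolic glucosinolates, reversed, since its msh1 effect was -1.03 ± 0.33 against its own wild type and 4.75 ± 0.37 against the other. In the reverse direction, CYP81F2, which hydroxylates the indole ring, had a difference of -2.53 ± 0.30 (edgeR adjusted p = 2.31e-05), and its msh1 effect was not called with the other 16 h wild type (0.29 ± 0.22, 0.338).

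In tryptophan synthesis, ASA1 and ASB1, the subunits of anthranilate synthase at its entry, PAT1, TSA1 and TSB2 were higher in sal1 and lower in msh1, with differences of 1.62 ± 0.30, 0.89 ± 0.19, 1.67 ± 0.25, 1.72 ± 0.32 and 2.43 ± 0.23. PAI1, an isomerase between them, ran the other way with -2.01 ± 0.21 (edgeR adjusted p = 9.22e-06). PAI1 and 0 of these 5 were called opposite again with the other 16 h wild type, where ASA1 and TSA1 were higher in msh1 (0.57 ± 0.21 and 0.69 ± 0.21, edgeR adjusted p of 0.0482 and 0.0189). PAI1 and 2 of the 5 were called again with the other 12 h wild type. Sulfate assimilation supplies the sulfur of these compounds and the sulfate donor PAPS, whose use yields PAP. Of 22 tested sulfur genes, 6 were higher in sal1 and lower in msh1 and 0 did the reverse (medians 1.00 and -0.24). AKN2 (AT4G39940), a kinase that makes PAPS, was at 431, 537 and 379 CPM in sal1, against 151, 102 and 82.8 CPM in its wild type. In msh1, AKN2 was at 106, 133 and 172 CPM, against 400, 393 and 292 CPM in its wild type. APK, a second such kinase, SIR (sulfite reductase), APS3 (ATP sulfurylase) and SULTR4;1 (a vacuolar sulfate exporter) had differences of 2.73 ± 0.24, 1.82 ± 0.16, 1.63 ± 0.18 and 1.76 ± 0.18, and APR1, an APS reductase, was called in sal1 alone (1.56 ± 0.15, edgeR adjusted p = 4.26e-06). With the other 16 h wild type 0 of 6 were called opposite again and the median msh1 effect was 0.38, with APS3 and SULTR4;1 higher in msh1 (0.37 ± 0.13 and 0.39 ± 0.12, both called), and with the other 12 h wild type it was 4 of 6.

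Phenylpropanoid and flavonoid genes belonged to the same direction in part. Of 18 genes for phenylpropanoids and lignin precursors, 6 were higher in sal1 and lower in msh1, and of 21 flavonoid genes 6, with 0 in the reverse direction. Another 10 flavonoid genes were called in sal1 alone (list medians 2.03 in sal1 and -0.97 in msh1). PAL1 (AT2G37040), the entry enzyme of the phenylpropanoid pathway, was at 132, 260 and 211 CPM in sal1, against 76.7, 67 and 58.8 CPM in its wild type. In msh1, PAL1 was at 54.9, 66.8 and 68.9 CPM, against 135, 152 and 169 CPM in its wild type. TT4 (AT5G13930), the chalcone synthase that starts flavonoid synthesis, was at 208, 241 and 418 CPM in sal1, against 42.2, 34.4 and 70.2 CPM in its wild type. In msh1, TT4 was at 62.3, 75.6 and 53.9 CPM, against 127, 152 and 162 CPM in its wild type. The groups were apart in both sets for both genes, with differences of 2.84 ± 0.28 and 3.76 ± 0.40 (edgeR adjusted p of 7.29e-06 and 1.07e-05). PAL2, C4H, 4CL3 and CAD5, further enzymes of the pathway, had differences of 1.88 ± 0.19, 1.26 ± 0.18, 1.48 ± 0.21 and 1.77 ± 0.25. MYB75, an activator of anthocyanin synthesis, averaged 42 ± 9.26 CPM in sal1, against 7.59 ± 2.27 CPM in its wild type, and 1.29 ± 0.74 CPM in msh1, against 12.6 ± 4.08 CPM in its wild type (SD, n = 3 each). With the other 16 h wild type 4 of 6 phenylpropanoid and 3 of 6 flavonoid genes were called opposite again, PAL1 and TT4 with msh1 effects of -1.19 ± 0.21 and -1.75 ± 0.28 (edgeR adjusted p of 0.000512 and 0.000267), and MYB75 was not (-1.10 ± 0.44, 0.0679). With the other 12 h wild type 2 of 6 and 3 of 6 were called again, and the median sal1 effect was -0.14 in place of 0.29 for phenylpropanoid and 0.78 in place of 2.03 for flavonoid genes. PAL1 and TT4 then had sal1 effects of 1.03 ± 0.21 and 0.93 ± 0.28 (edgeR adjusted p of 0.000979 and 0.0118). PAL2, 4CL3, CAD5 and MYB75 were not called there, with -0.26 ± 0.14, 0.083 ± 0.16, -0.12 ± 0.18 and 0.65 ± 0.27 (edgeR adjusted p of 0.114, 0.678, 0.563 and 0.0557).

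**Figure D5:**
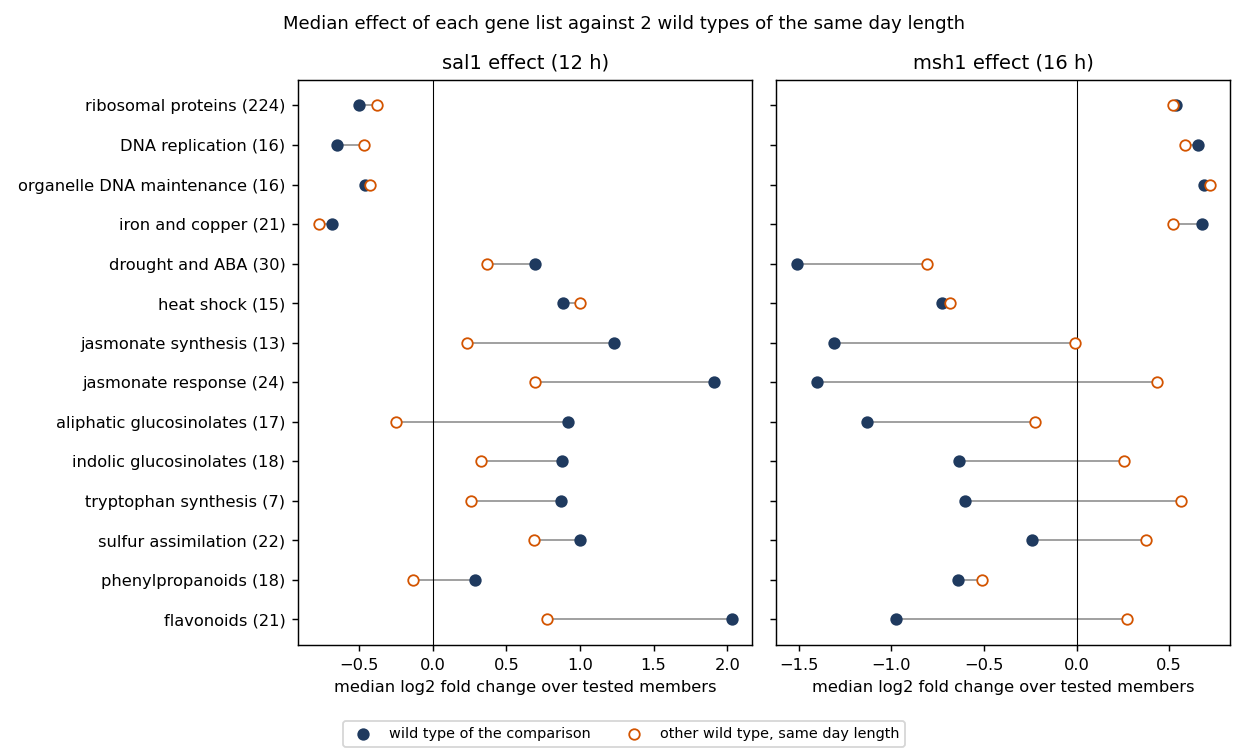
Median log2 fold change (x axis) over the tested members of 14 gene lists (rows, number tested in brackets), for sal1 12 h on the left and msh1 16 h on the right, against the wild type of the comparison (filled) and against the other wild type of the same day length (open). The pairs are close for ribosomal proteins, DNA replication, organelle DNA and heat shock, and the open points of both jasmonate lists lie near or above 0 in msh1.

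Most clock genes were in neither opposite class, which also held for all tested genes, of which 15% were opposite. Their effects in msh1 were wide. Of 13 morning and daytime clock genes, 12 were lower in msh1 and 8 lower in sal1, 6 had the same direction with a called difference in size, 1 was opposite in each direction, and the medians were -0.77 in sal1 and -3.08 in msh1. CCA1 (AT2G46830), a morning-phased repressor of the clock, was at 45.5, 39.4 and 24.9 CPM in sal1, against 14.6, 12.6 and 12.8 CPM in its wild type. In msh1, CCA1 was at 5.13, 3.07 and 4.8 CPM, against 145, 149 and 156 CPM in its wild type. TOC1 (AT5G61380), an evening-phased repressor, was at 125, 113 and 117 CPM in sal1, against 160, 168 and 164 CPM in its wild type. In msh1, TOC1 was at 182, 156 and 152 CPM, against 43.7, 38 and 32.4 CPM in its wild type. Both genes were apart from their wild types in both sets (differences 6.57 ± 0.30 and -2.57 ± 0.15, edgeR adjusted p of 2.88e-08 and 2.01e-07). With the other 12 h wild type the sal1 effects on CCA1 and TOC1 were -0.26 ± 0.20 and -0.07 ± 0.12 and were not called (edgeR adjusted p of 0.269 and 0.631), and 0 morning genes were opposite again. LHY, the partner of CCA1, fell in msh1 by a log2 value of -4.87 ± 0.23 and LNK4, a coactivator of evening genes, by -3.08 ± 0.10. Of 14 tested afternoon and evening genes, 11 were higher in msh1, with a median of 1.75 in msh1 and 0.076 in sal1, among them FKF1 (2.88 ± 0.11), JMJD5 (3.13 ± 0.14) and COR27 (3.87 ± 0.16). Among the 14, 1 was higher in sal1 and lower in msh1 and 3 did the reverse. In that order, 0 and 2 of them were called opposite again with the other 16 h wild type, and 0 and 1 with the other 12 h wild type. PRR3 and ELF3 were lower in sal1 and higher in msh1, with differences of -2.40 ± 0.13 and -1.61 ± 0.098, and with the other 12 h wild type the sal1 effect was -0.23 ± 0.092 on PRR3 and -0.15 ± 0.079 on ELF3 (edgeR adjusted p of 0.044 and 0.111).

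The wild types themselves differed in these genes. Scaled over all 30 libraries, COR27 (AT5G42900) was at 48.1, 49.7 and 46.6 CPM in msh1-labelled libraries, against 2.29, 3.66 and 3.8 CPM in their wild type and 0.0484, 0.165 and 0 CPM in the other 16 h wild type. It was at 79.3, 90.4 and 91.8 CPM in sal1-labelled libraries, against 56.3, 56.7 and 45.1 CPM in their wild type and 49.7, 34.7 and 31.4 CPM in the other 12 h wild type. Time of harvest is not given in the labels, and its part in these values was not tested. The wild types of the 2 sets, 12 h over 16 h, differed in 6674 genes, 3073 higher and 3601 lower (9644 and 1649 with library totals, and 4313 in all without replicate 3 of the 12 h wild type), and the mutants, sal1 over msh1, in 14501, 7786 higher and 6715 lower (10760 and 4570 with library totals). These comparisons use the same libraries as the difference of effects.

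The widest opposite effects lay in genes near 0 counts in some groups. CYP94B3 (AT3G48520), an enzyme that oxidises active jasmonate, was at 16.3, 44.2 and 24.5 CPM in sal1, against 2, 0.913 and 0.445 CPM in its wild type. In msh1, CYP94B3 was at 0, 0.583 and 0.114 CPM, against 10.2, 16.8 and 15 CPM in its wild type. RNS1 (AT2G02990), an S-like ribonuclease, was at 5.55, 14.6 and 14.7 CPM in sal1, against 0.91, 0.627 and 0.267 CPM in its wild type. In msh1, RNS1 was at 0.378, 1.06 and 0.514 CPM, against 25, 20.1 and 19.1 CPM in its wild type. FH3 (AT4G15200), a formin, was at 60.7, 88.9 and 62.5 CPM in sal1, against 3 counts over all libraries of its wild type, a ratio of 1319 (95% counting interval 451 to 6397). In msh1, FH3 was at 0.27, 0.318 and 0.4 CPM, against 2.62, 3.05 and 4.3 CPM in its wild type. For all 3 genes the sal1-labelled libraries were above and the msh1-labelled libraries below their wild types. Against the other 16 h wild type the msh1 effects of CYP94B3, RNS1 and FH3 were not called (edgeR adjusted p of 0.466, 0.229 and 0.815), and the sal1 effect on RNS1 was 0.28 ± 0.51 against the other 12 h wild type (0.655).

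The rest of the 10 highest differences were ILL5, TPS02, RAP2.6, BSMT1, AT1G76640, AT5G10625 and AT3G41762. In ILL5, RAP2.6 and BSMT1 the wild type exceeded msh1 by ratios of 55.1 (18.5 to 270), 287 (79 to 2373) and 54.1 (18.2 to 265), with 3, 2 and 3 counts over the msh1 libraries. TPS02, a terpene synthase, had no count in msh1, where its wild type was at least 9.61-fold higher (floor of 3 counts over the group). AT1G76640 exceeded 2 counts over its wild type by 231 (63.7 to 1912) in sal1, and its wild type at 16 h exceeded 2 counts over msh1 by 16.5 (4.21 to 143). These intervals cover counting error only. The other 16 h wild type was also near 0, with means of 0.0368 CPM for ILL5, 0.0735 CPM for RAP2.6, 0.0713 CPM for BSMT1, 0.0184 CPM for TPS02 and 0.0322 CPM for AT1G76640, scaled over all 30 libraries. The ratios in msh1 for these 5 genes hold only for the wild type they were set against, and against the other 12 h wild type the sal1 effect on RAP2.6 was not called (edgeR adjusted p = 0.795). AT5G10625 had a difference of 9.29 ± 1.07 (edgeR adjusted p = 2.03e-05). AT3G41762, whose exonic bases overlap exons on the other strand for a share of 0.421, was at 795, 711 and 823 CPM in sal1, against 2.61, 2.28 and 2.58 CPM in its wild type. In msh1, AT3G41762 was at 1.56, 1.11 and 0.686 CPM, against 2.39, 1.83 and 2.51 CPM in its wild type. Here the sal1 effect made up most of the difference (8.28 ± 0.19 in sal1, of a difference of 9.28 ± 0.29). Against the other 16 h wild type the msh1 effects on AT5G10625 and AT3G41762 were not called (edgeR adjusted p of 0.56 and 0.189).

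Among the 10 lowest differences, GER3 (AT5G20630), a germin-like protein, was at 139, 76.7 and 73.5 CPM in sal1, against 461, 295 and 293 CPM in its wild type. In msh1, GER3 was at 852, 789 and 745 CPM, against 116, 125 and 176 CPM in its wild type. KCS12 (AT2G28630), an enzyme that elongates fatty acids, was at 2.65, 1.63 and 1.59 CPM in sal1, against 12.3, 12.4 and 8.02 CPM in its wild type. In msh1, KCS12 was at 25.4, 19 and 19.2 CPM, against 8.09, 4.2 and 6.51 CPM in its wild type. Neither overlapped its wild type in either set, with differences of -4.37 ± 0.37 and -4.21 ± 0.37 (edgeR adjusted p of 2.06e-06 and 2.99e-06). Against the other wild types GER3 had -0.54 ± 0.23 in sal1 (edgeR adjusted p = 0.0623) and 2.55 ± 0.25 in msh1 (4.55e-06). KCS12 had -1.98 ± 0.27 in sal1 (3.98e-05) and 0.10 ± 0.19 in msh1 (0.713). AT1G27020 and RVE2, a MYB-like clock factor, had -4.32 ± 0.52 and -3.73 ± 0.51. Against the other 12 h wild type the sal1 effect on RVE2 had the opposite sign (1.01 ± 0.35, edgeR adjusted p = 0.0226), and that on AT1G27020 was -2.01 ± 0.42 (0.00112). AT1G07373, with -6.89 ± 1.06 (edgeR adjusted p = 0.000176), reached only 10.6, 3.94 and 3.43 CPM in the wild type of sal1, and the other 12 h wild type had no counts for it, so that its direction in sal1 depended on the wild type.

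Some of the difference came from an effect called in a single mutant, for 5048 genes in sal1 alone (22.8%) and 1913 in msh1 alone (8.63%). A call in 1 of the 2 mutants is not by itself a difference, and for these genes the difference was called as well. In sal1 the highest were BGAL14, a beta-galactosidase, at 28.7, 20.3 and 25.9 CPM against 1 count over its wild type (ratio 1417, 254 to 56011), and AT1G48405 and AT1G28590, at least 265-fold and 97.4-fold higher than a wild type with no counts. Each of them starts close behind the end of a same-strand gene, as described below, and whether their reads continue from that gene was not tested. The lowest were AACT1, BHLH100 and AT1G13609, with sal1 effects of -4.58 ± 1.19, -3.97 ± 0.86 and -3.50 ± 0.85, of which that on AT1G13609 was not called with the other 12 h wild type (1.92 ± 0.94, edgeR adjusted p = 0.0921). In msh1 alone AT1G75945 had 1 count over the msh1 libraries, against 6.05, 5.96 and 5.59 CPM in their wild type, a ratio of 321 (57.2 to 12731) for the wild type over msh1, beside 7.67, 8.16 and 8.18 CPM in sal1 and 8.79, 7.81 and 9.62 CPM in its wild type. UGT76B1, a glucosyltransferase, also fell in msh1 (-5.13 ± 1.02), and AT5G09570, BT2 and AT4G15670 rose (6.98 ± 0.66, 4.75 ± 0.42 and 2.11 ± 0.73), of which AT4G15670 lost its called difference without replicate 1 of the 12 h wild type and was not called in msh1 with the other 16 h wild type (edgeR adjusted p = 0.327). BT2 (AT3G48360), a nitrate-responsive scaffold protein, was at 69.2, 75.7 and 58.3 CPM in msh1, against 1.28, 1.15 and 4.77 CPM in its wild type, with no overlap.

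Of 6 tested genes of the SAL1 phosphatase family and exoribonucleases, 2 (SAL1 and AHL) were higher in sal1 and lower in msh1 and 1 (XRN2) did the reverse, and with the other 16 h wild type 0 of the 3 were called opposite again. AHL (AT5G54390), a phosphatase related to SAL1 that is also known to degrade PAP, averaged 187 ± 25.8 CPM in sal1, against 114 ± 11.4 CPM in its wild type, and 96.6 ± 13.3 CPM in msh1, against 145 ± 8.32 CPM in its wild type (SD, n = 3 each), with a difference of 1.30 ± 0.18 (edgeR adjusted p = 6.47e-05). Its effects were 0.24 ± 0.12 in sal1 with the other 12 h wild type and 0.055 ± 0.12 in msh1 with the other 16 h wild type, neither called (edgeR adjusted p of 0.0833 and 0.764). SAL1 itself was lower in msh1-labelled libraries, at 82.8, 87 and 90.6 CPM, against 136, 133 and 124 CPM in their wild type (-0.59 ± 0.12, edgeR adjusted p = 0.00222), but not against the other 16 h wild type (0.16 ± 0.12, 0.325). XRN2 (AT5G42540), a nuclear exoribonuclease that PAP inhibits, was lower in sal1 (-0.58 ± 0.075, edgeR adjusted p = 4.76e-05) and higher in msh1 (0.33 ± 0.075, 0.00494), but not called in msh1 against the other 16 h wild type (0.20 ± 0.081, 0.0688).

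Floral organ markers were low in sum in all 4 groups, and their sum lay above that of the wild type in both mutants. Of 8 tested, 2 were higher in sal1 and 0 lower, 5 were higher in msh1 and 0 lower, and the list summed to 10.6 to 14.3 CPM in sal1-labelled libraries, against 5.82 to 7.48 CPM in their wild type, and to 13.1 to 16 CPM in msh1-labelled libraries, against 6.71 to 10 CPM in theirs. SEP3, a floral organ factor, was at 2.97, 3.5 and 2.74 CPM in msh1, against 0.116, 0.339 and 0.359 CPM in its wild type, with no overlap. CRC, a carpel gene, had 40 counts over the msh1 libraries, against 3 over their wild type, a ratio of 12.5 (3.98 to 63.1), and no count in sal1. Scaled over all 30 libraries, SHP1, another member, averaged 8.84 CPM in sal1, against 5.03 CPM in its wild type. In msh1, SHP1 averaged 4 CPM, against 5.29 CPM in its wild type. SHP1 thus made up the larger part of the list's sum in the sal1 set. It averaged only 0.317 CPM in the other 12 h wild type, whose files held few entries in no gene. In the other 16 h wild type SHP1 averaged 4.89 CPM. Whether its level follows the kind of library was not tested. SEP3 averaged 0.156 CPM in sal1, against 0.138 CPM in its wild type. These members thus did not move alike in both mutants. Of 8 stem wall genes, 5 fell in sal1 and 0 were called in msh1, and the list summed to 110 to 120 CPM in sal1-labelled libraries, against 129 to 239 CPM in their wild type, and to 166 to 218 CPM in msh1-labelled libraries, against 199 to 228 CPM in theirs. Their part in the results above, dividing-cell genes included, was not tested.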

How the data were processed

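The values are raw counts of reads per gene, deposited by the authors, 1 file a library. Per the submitters' processing notes, the tools were Trim Galore 0.6.6, cutadapt 2.8 and the aligner STAR 2.7.10a, and the build was TAIR10, while the sources used here do not name a counting tool or its strand setting. The 34262 gene identifiers were used and 5 rows that name no gene, 48.2% to 49.8% of the entries in these 12 libraries, stayed out of totals and tests. Counts were fitted with edgeR 4.0.16 (R 4.3.3, limma 3.58.1) after filterByExpr with a minimum count of 10 and TMM scaling, using 1 coefficient for each of 4 groups of 3 libraries. Quasi-likelihood F tests with Benjamini-Hochberg adjustment over 22156 genes gave each effect and the difference of effects at an adjusted p under 0.05, and every adjusted p is from this test unless stated. The SE is the log2 fold change divided by the square root of F. CPM are TMM-scaled, over the 12 libraries unless stated. The series text calls the replicates full siblings, and nothing says they were grown apart, so the p-values measure the spread between these samples. No pair of replicates agreed within sampling noise. Ratios to groups with 1 to 3 counts have 95% exact counting intervals, and groups at 0 use a floor of 3 counts over the group.

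Genes named were SAL1, MSH1, the 10 highest and 10 lowest differences among opposite genes, the 3 highest and 3 lowest called in 1 mutant (group mean of 5 CPM or more, no overlap with the wild type where called) and up to 6 members of each list with the smallest adjusted p, with exceptions said where they stand. Members of a list are those found by symbol in RefSeq's annotation, and 18 list symbols matched no single gene. Gene lists and members were chosen with earlier results of these data known. Promoters are RefSeq's for TAIR10.1. The procedure was tested on counts simulated with the fitted spread of these data, which cannot bear on the choice of wild type. Alternatives were RLE scaling, library totals, DESeq2 1.42.0, no filter and a minimum of 30, an adjusted p under 0.01, all 30 libraries, each mutant with its own wild type, a replicate block, other wild types, and each library left out.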

Additional observations from a re-analysis of the deposited data

How the results depend on the processing

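Library totals and the other 12 h wild type were added after seeing the data. Of the 146 genes followed one by one, all kept the direction of their difference under other scalings, filters, samples, DESeq2, the replicate block and each library left out, where a value could be had, and 5 lost the call when 1 library was left out (SEP2, SEP3, CRC, AT4G15670 and AT1G28590). With the other 16 h wild type 13 lost the call and IGMT5 reversed (log2 difference -2.09). With the other 12 h wild type 4 lost it and 2 reversed, AT1G07373 (3.13) and AT1G13609 (0.089), with edgeR adjusted p of 0.244 and 0.967. The cause was not tested. With that wild type the genes higher in sal1 and lower in msh1 numbered 949, against 1535. At an adjusted p under 0.01, by construction fewer genes were called: 4079 for the msh1 effect, 798 and 971 opposite genes, and 3686 between wild types. Library totals gave 11293 genes between wild types and moved the median msh1 effect to 0.116. Leaving out each library gave 10137 to 11367 genes for the difference, 9760 to 11517 for sal1, 4890 to 7126 for msh1, 13413 to 14756 between mutants, 4313 to 6966 between wild types (the lowest without replicate 3 of the 12 h wild type), 1173 to 1547 higher in sal1 and lower in msh1, and 1312 to 2104 the reverse. Same-numbered libraries of mutant and wild type deviated together little (residual correlations 0.0725 to 0.146 in the sal1 set, where each library correlated best with its own number, and -0.0146 to 0.0289 in the msh1 set), so the numbers were not taken as pairs. With a replicate block 11187, 11284 and 6959 genes were called for the difference, sal1 and msh1, with 1593 and 1968 opposite genes. DESeq2 gave 11595, 11486 and 7077. Depth limits genes near the floor of 3 counts, whose ratios have wide intervals.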

Other observations

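A group of 63 genes had 3 counts or fewer over the 12 h wild-type libraries named for sal1 and averaged 5 CPM or more in sal1-labelled libraries, while 0 genes had the reverse pattern. In the msh1 set 1 gene was at 5 CPM or more in msh1-labelled and at 3 counts or fewer in wild-type libraries, and 2 genes, AT1G75945 and RAP2.6, the reverse. Of the 63 genes, 2 reached 1 CPM in hda6 at 12 h, 1 in hda6 at 16 h, 1 in msh1 at 16 h, 0 in cue1 at 12 h, 1 in cue1 at 16 h and 1 in the other 12 h wild type. APX2, a cytosolic ascorbate peroxidase known for its rise under high light, averaged 11.5 ± 1.13 CPM in sal1-labelled libraries (SD, n = 3) and had 2 counts over their wild type. AT1G48405 averaged 14.1 ± 1.92 CPM in sal1-labelled libraries and had 0 counts over their wild type. These examples were chosen after their values were seen.

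Many of these genes lay just downstream of another gene. For 46 of the 63 genes (73%) the annotation placed the end of a same-strand gene within 1000 bases upstream, at a median gap of 230 bases, with a median upstream level of 27.1 CPM in the wild type. The same held for 7499 of 22145 tested genes (33.9%). Of 426 tested genes at 3 counts or fewer in that wild type but under 5 CPM in sal1-labelled libraries, it held for 264 (62%). These 426 genes passed the filter on low counts through libraries other than that wild type, and through which ones was not tested. Their share is thus not a background of genes unchanged in sal1. AT1G48405 starts 18 bases after the end of AGO1, which was at 286 CPM in sal1-labelled libraries, against 195 CPM in their wild type. FH3 starts 283 bases after the end of BAM5, which was at 475 CPM in sal1-labelled libraries, against 37.8 CPM in their wild type. BGAL14 starts 133 bases after the end of FP6, which was at 49.7 CPM in sal1-labelled libraries, against 43 CPM in their wild type. AT1G28590 starts 141 bases after the end of AT1G28591. Whether reads of these genes continue from the gene upstream was not tested.

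Among gene families, 28 of 141 cytochrome P450 genes were higher in sal1 and lower in msh1 and 4 did the reverse. In the same direction were 10 of 49 UDP-glucosyltransferases with 0 in reverse, 9 of 72 MYB factors with 0, 7 of 41 glutathione transferases with 2, 4 of 57 NAC factors with 0, and 3 of 4 late embryogenesis abundant proteins. WRKY factors had 4 of 56 in each direction and AP2/ERF factors 6 and 3 of 27. Of 15 SAUR genes, which auxin induces early, and of 11 defensin-like PDF genes, 0 were higher in sal1 and lower in msh1. Over all tested genes these shares were 6.93% and 8.05%. In the first direction the NAC and WRKY factors were near that share. For lists as short as the SAUR and PDF genes, 0 is not far from it either. With the other 16 h wild type fewer were called opposite again, in the first direction 10 of 28 cytochrome P450 genes, 3 of 10 UDP-glucosyltransferases, 2 of 9 MYB factors, 3 of 7 glutathione transferases, 1 of 4 NAC factors, 2 of 3 late embryogenesis abundant proteins, 0 of 4 WRKY factors and 2 of 6 AP2/ERF factors. With the other 12 h wild type these were 15, 5, 2, 3, 3, 0, 2 and 2 in the same order, and the median sal1 effect of the late embryogenesis abundant proteins was -0.76 in place of 1.79. In the reverse direction 2 of 4 P450 genes, 0 of 2 glutathione transferases, 3 of 4 WRKY and 3 of 3 AP2/ERF factors were called again with the other 16 h wild type, and 1, 1, 2 and 3 with the other 12 h wild type.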
